A study of Arabidopsis thaliana with 12 samples.

Results

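The mitochondrial genome genes of Arabidopsis thaliana were taken as all rows of the deposited expression table whose locus ID begins with ATMG. There were 151 such rows among 33618 in the table. The table gives FPKM, that is fragments per kilobase of transcript, scaled to the mapped fragments of the library, for 12 libraries of whole rosettes, 3 from each of 4 groups. The first tested group, vtc2, carried the vtc2-4 allele of VTC2, the gene of GDP-L-galactose phosphorylase in the main plant route to ascorbate. The second, vtc4, carried the vtc4-4 allele of VTC4, the gene of L-galactose 1-phosphate phosphatase in the same route. The third, OE, was a single line labelled vtc2/OE-VTC2 L15, in which VTC2 is overexpressed in the vtc2 mutant; the sources used here do not give its promoter. Wild type (WT) served as the common reference, and OE was also set against its vtc2 background. All plants were untreated and 4 weeks old, with 8 h of light and 16 h of darkness at 22 °C, and were frozen 30 minutes after lights on, with 8 rosettes pooled per library. VTC2 stood at 17.2 ± 2.79 FPKM in vtc2, 383 ± 24.6 in OE and 819 ± 77.4 in WT (SD, n = 3), and VTC4 at 0.373 ± 0.0837 in vtc4 and 28.3 ± 2.67 in WT. The transcript of VTC2 in the libraries labelled OE therefore lay above that of vtc2 and below that of WT.

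Plant mitochondria keep a small genome of their own. It encodes core subunits of respiratory complexes I, III and IV and of ATP synthase, proteins for cytochrome c maturation, some ribosomal proteins, and the ribosomal and some transfer RNAs, while most subunits of the same complexes are encoded in the nucleus. The last enzyme of ascorbate synthesis, L-galactono-1,4-lactone dehydrogenase, sits in the inner mitochondrial membrane and passes electrons to cytochrome c. The libraries were made with a stranded mRNA kit, and kits of that kind select RNA by its poly(A) tail. Most mature RNAs of plant mitochondria have no stable tail, and a tail there generally marks RNA for decay, so FPKM values of ATMG rows are not a measure of total mitochondrial RNA.

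A second feature of the Arabidopsis genome bears on these rows, namely a large copy of mitochondrial DNA in chromosome 2. In the RefSeq reference (build TAIR10.1), 253756 of 367734 windows of 75 bases from the mitochondrial genome, or 69.0%, also occurred letter for letter in a nuclear chromosome. Chromosome 2 alone held 253310 of them (68.9%). A window has the length of 1 read of these libraries. The submitters used build TAIR10, and the mitochondrial sequence behind its ATMG IDs was not available here. These percentages therefore hold for TAIR10.1 alone. Of 35 named protein and ribosomal RNA genes in RefSeq's mitochondrial genome, 13 had every window copied in the nucleus, 14 had some and 8 had none. The 8 without a copy were ccmB, nad9, cox1, nad4L, atp4 and the ribosomal RNA genes rrn5, rrn18 and rrn26. RefSeq does not pair those symbols with ATMG IDs, so an ID is described by function below only where a RefSeq note gives it.

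Notes of that kind named 53 of the 151 IDs as the counterpart of a gene or pseudogene in chromosome 2. The following stretches of 75 bases, read from TAIR10.1, show how close such pairs are. They are the row of cytochrome c oxidase subunit 3, which was listed at 0 in every library, and the 2 rows of highest level among the 53. Each is given 5′ to 3′ on the strand of the match, in lower case, with capitals for a base that differs between the mitochondrial and the nuclear copy.
ATMG00730, mitochondrial genome, MT:330699-330773, minus strand: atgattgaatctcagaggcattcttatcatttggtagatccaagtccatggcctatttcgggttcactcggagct
ATMG00730, partner AT2G07687, chr2:3312577-3312651, minus strand: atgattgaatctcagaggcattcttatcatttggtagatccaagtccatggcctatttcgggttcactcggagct
ATMG01330, mitochondrial genome, MT:94301-94375, minus strand: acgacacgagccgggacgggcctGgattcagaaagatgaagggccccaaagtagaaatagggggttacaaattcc
ATMG01330, partner AT2G07808, chr2:3336970-3337044, plus strand: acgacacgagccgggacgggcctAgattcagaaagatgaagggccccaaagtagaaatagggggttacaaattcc
ATMG01090, mitochondrial genome, MT:270354-270428, minus strand: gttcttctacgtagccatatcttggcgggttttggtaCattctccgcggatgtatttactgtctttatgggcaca
ATMG01090, partner AT2G07777, chr2:3251249-3251323, minus strand: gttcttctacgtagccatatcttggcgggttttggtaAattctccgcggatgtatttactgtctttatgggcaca
The first pair was identical over the whole gene, in all 724 windows of the nuclear partner. The partner of ATMG01330, a pseudogene whose match lies at RefSeq's ORF107H, had 269 of 315 windows (85.4%) exact in the mitochondrial genome. The partner of ATMG01090, at ORF262, had 565 of 715 (79.0%). The sources used here do not say how reads that match more than 1 place were counted.

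Most ATMG rows carried no signal. In all 12 libraries 105 of the 151 rows (69.5%) were listed at 0, and 46 (30.5%) were above 0 in at least 1 library. The corresponding share above 0 was 59.1% of the 132 chloroplast genome rows and 74.6% of the 32217 nuclear rows. Only 15 ATMG rows were above 0 in all 12 libraries, and 9 reached 1 FPKM in any library. A 0 in this table is not proof of absence, because RBCS1A and LHCB1.3, which encode abundant leaf proteins, were also listed at 0 in all 12 libraries of these rosettes. The third leaf marker, CA1, ranged from 2018 to 3161 FPKM. Of the root markers, PYK10 ranged from 10.9 to 31.2 FPKM, PIN2 reached at most 0.0971 and COBL9 was at 0 in 10 libraries. The root markers summed to 24.8 to 31.3 FPKM in vtc2, 22.6 to 30.5 in vtc4, 18.7 to 21.4 in OE and 10.9 to 17.3 in WT, and their part in the differences below was not tested. The flower and pollen markers AP3, AG and VEX1 stayed at or below 0.977.

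The empty rows included core subunits of the respiratory chain that RefSeq notes identify. The rows of apocytochrome b of complex III (ATMG00220), cytochrome c oxidase subunit 3 of complex IV (ATMG00730), ATPase subunits 6-1 and 8 (ATMG00410 and ATMG00480) and NADH dehydrogenase subunits 3 and 1A of complex I (ATMG00990 and ATMG01275) were at 0 in all 12 libraries. So were the ribosomal proteins S4, S7, S12 and L5 (ATMG00290, ATMG01270, ATMG00980 and ATMG00210) and the rows matching the cytochrome c maturation genes ccmFC and ccmC (ATMG00180 and ATMG00900). Every one of these had a nuclear partner with 100% exact windows except ATMG00180, at 98.5%. Only the 53 noted rows could be given a role. Rows of such roles, at higher levels too, may therefore lie among the other 98 rows, of which 35 were detected. Within the 53, the highest detected row whose match lies at a named gene of such a role was that of rpl2 (ATMG00560), a ribosomal protein gene. It had a mean of 0.0809 FPKM, values up to 0.191 and a signal in 10 of 12 libraries. Some rows matching open reading frames also had respiratory notes. ATMG01090, noted as ATP synthase 9, averaged 0.392 FPKM, ATMG00590 (cytochrome b/b6 protein) 0.0398 and ATMG01280 (cytochrome c oxidase subunit II-like) 0.0234. The row matching ccmFN2 (ATMG00960) was above 0 in 1 library, at 0.0900 FPKM. ATP synthase subunit 1 (ATMG01190) reached 0.0302 FPKM at most, ATP synthase subunit 9 (ATMG01080) 0.119 and NADH dehydrogenase 2B (ATMG01320) 0.110.

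Counted by their copies, 42 of the 53 rows with a noted partner (79.2%) were at 0 in all 12 libraries, and so were 63 of the other 98 ATMG rows (64.3%). Among the 53, a row was at 0 in 30 of 33 cases where all windows of a partner were exact and in 12 of 20 cases where some were not. The nuclear partners were low as well: 46 of them had a row, and the highest value of any in any library was 0.561 FPKM. Summed over those 46, the partners gave 0.796 to 1.18 FPKM in vtc2, 0.966 to 1.26 in vtc4, 0.608 to 0.828 in OE and 0.502 to 1.09 in WT. Copies were counted in TAIR10.1 and not in the build used for the table. The part of the copies in these zeros was not tested.

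**Figure D1:**
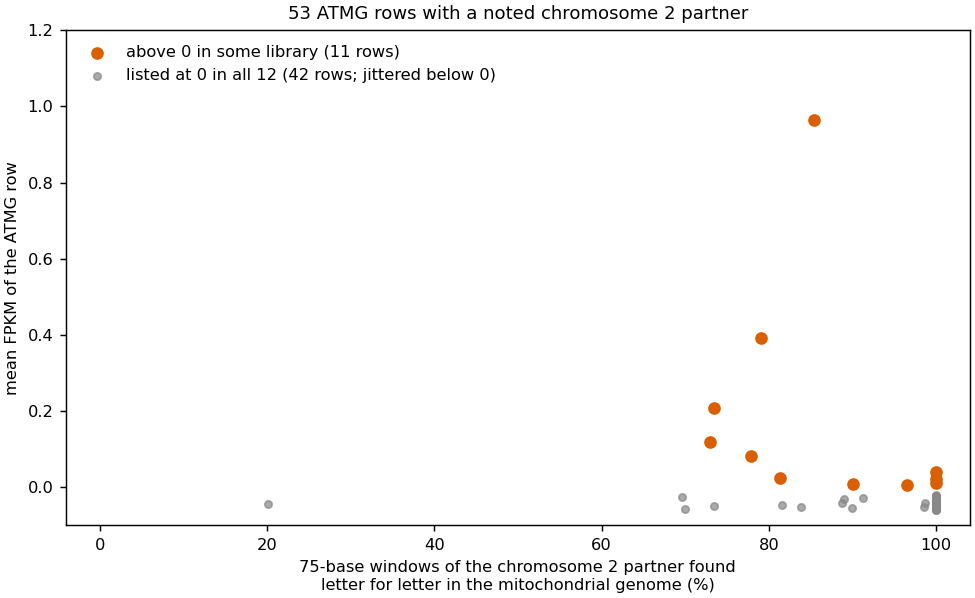
Mean FPKM over 12 libraries (vertical axis) of the 53 ATMG rows with a noted nuclear partner. The horizontal axis is the percentage of the partner's 75-base windows found exactly in the mitochondrial genome of TAIR10.1. The 42 rows at 0 are drawn just below the axis zero; the highest point is ATMG01330 at 0.964 FPKM.

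A handful of rows carried nearly all of the level. The 3 highest were ATMG01380 with a mean of 63.6 FPKM over the 12 libraries, ATMG01390 with 10.4 and ATMG00020 with 9.40. Together they made up 87.4% of the summed mean of all ATMG rows. ATMG00660 followed with 3.00, then ATMG01330 with 0.964, ATMG00640 with 0.947, ATMG00080 with 0.800 and ATMG00070 with 0.736. These 8 rows were the ones that passed the filter used for testing, which asked for 1 FPKM or more in 3 or more libraries. The row just inside that filter, ATMG00070, reached 1 FPKM in 3 libraries, and the highest row outside it, ATMG00670, averaged 0.603 and reached 1 FPKM in none. The other rows among the 15 of highest mean were ATMG00670, ATMG00690 (0.488), ATMG01360 (0.477), ATMG00090 (0.434), ATMG01090 (0.392), ATMG00160 (0.382) and ATMG01370 (0.347). Only ATMG01330 and ATMG01090 of these 15 have a RefSeq note; the others are given by ID alone. Neighbouring rows in this order below ATMG00660 had ranges over the libraries that overlapped widely.

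**Figure D2:**
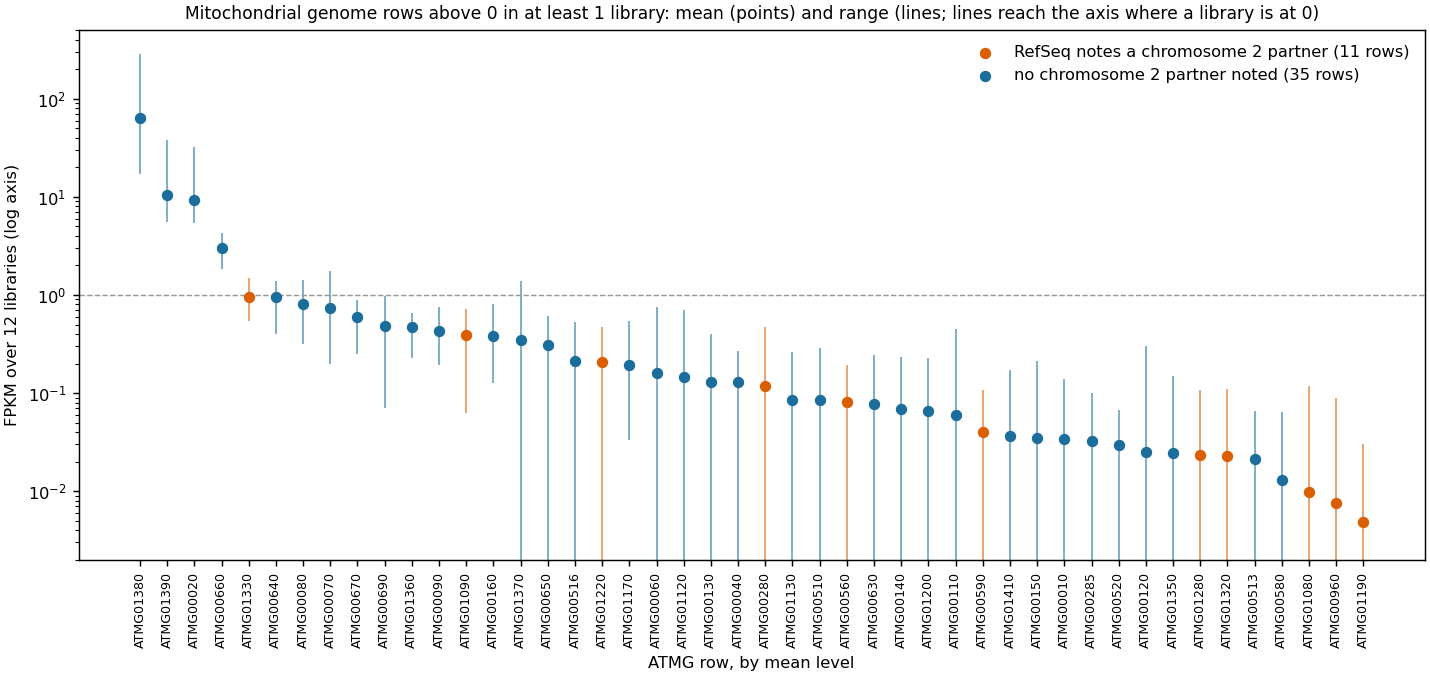
Mean (points) and range (lines) of FPKM over 12 libraries, on a log axis, for the 46 ATMG rows above 0 in at least 1 library, coloured by whether RefSeq notes a nuclear partner (11 rows) or not (35 rows). ATMG01380, ATMG01390 and ATMG00020 stand above the other rows, and most rows lie below 1 FPKM (dashed line).

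Low rows rested on very few fragments. In 28 of the 46 detected rows all values were whole multiples of the row's own lowest step, within 0.1 of a step after allowing for each library's relative fragment worth of 0.913 to 1.01. One step, taken here as 1 fragment, was worth 0.0227 to 0.380 FPKM depending on the row. Over all 12 libraries these rows held 2 to 70 steps each and 313 together, with at most 17 steps of 1 row in 1 library. ATMG01190, for example, had 1 step in vtc2 replicate 1 and 1 in WT replicate 2 and was at 0 in the other 10 libraries. Total depth per library is not known from FPKM.

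One library stood apart before any comparison. In vtc2 replicate 3 the 3 highest rows were far above the same rows in every other library. ATMG01380 was at 17.1, 59.9 and 289 FPKM in vtc2, 31.9, 62.0 and 54.4 in vtc4, 49.2, 35.5 and 42.4 in OE, and 21.3, 33.5 and 67.0 in WT. ATMG01390 was at 6.88, 9.58 and 38.2 FPKM in vtc2, 8.23, 11.2 and 6.06 in vtc4, 6.29, 5.57 and 7.67 in OE, and 6.87, 10.3 and 7.53 in WT. ATMG00020 was at 6.01, 7.81 and 32.0 FPKM in vtc2, 7.52, 9.19 and 5.66 in vtc4, 5.41, 5.39 and 7.80 in OE, and 6.97, 10.5 and 8.47 in WT. The third vtc2 library was therefore 4.31, 3.42 and 3.05 times the next highest library in these rows. The first vtc2 library was the lowest of all 12 for ATMG01380. Outside vtc2 replicate 3, all group ranges of the 3 rows overlapped.

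The same library was high in rows outside the mitochondrial genome too. The 18S ribosomal RNA row of the nuclear genome, AT3G41768, was at 581 FPKM in vtc2 replicate 3 against at most 229 in the other 11 libraries. Rows with an ENSRNA prefix summed to 2324 FPKM there and to 1171 to 1812 elsewhere. Among 17290 tested genes, 20 were at least 2 times as high in vtc2 replicate 3 as in every other library. The corresponding counts for the other libraries ranged from 0 to 12. Of the 20, 3 were ATMG rows, 4 chloroplast rows, 3 ENSRNA rows and 10 nuclear rows. The nuclear rows included AT3G41768, WRKY54 and NAC061. No RefSeq note names the 3 ATMG rows, so whether they are themselves ribosomal RNA rows cannot be told here. The part of these RNAs in the values of the 3 ATMG rows was not tested.

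**Figure D3:**
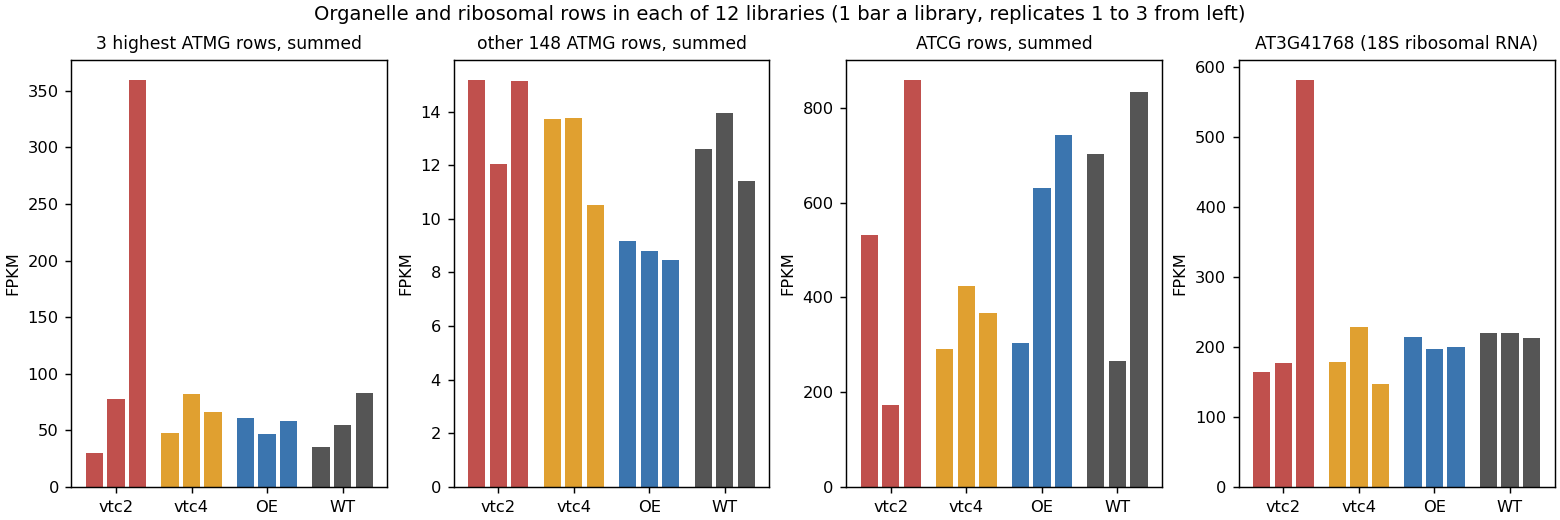
Summed FPKM in each of the 12 libraries (1 bar each, 3 per group) for the 3 highest ATMG rows, the other 148 ATMG rows and the chloroplast (ATCG) rows, and FPKM of the 18S ribosomal RNA row AT3G41768. The third vtc2 bar is the highest for the 3 rows (359) and for 18S RNA (581), and the 3 OE bars are the lowest for the other 148 rows.

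The summed level of all 151 rows was small and, because of that library, most variable in vtc2. It was 45.2, 89.3 and 374 FPKM in vtc2, 61.4, 96.1 and 76.7 in vtc4, 70.1, 55.3 and 66.4 in OE, and 47.8, 68.3 and 94.4 in WT. These sums were 0.00642% to 0.0547% of all FPKM in a library. The chloroplast rows summed to 173 to 858 FPKM in vtc2, 292 to 424 in vtc4, 304 to 743 in OE and 265 to 833 in WT, so their spread within groups was also wide and the groups overlapped.

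Without the 3 highest rows, a choice made after their values were seen, the picture was steadier. The other 148 rows summed to 15.2, 12.1 and 15.2 FPKM in vtc2, 13.7, 13.7 and 10.5 in vtc4, 9.16, 8.81 and 8.48 in OE, and 12.6, 14.0 and 11.4 in WT. All 3 OE libraries lay below each of the other 9. The means were 14.1 ± 1.79 in vtc2, 12.7 ± 1.85 in vtc4, 8.82 ± 0.341 in OE and 12.7 ± 1.28 in WT (SD, n = 3 each). OE was also below every other library for the 143 rows that did not pass the filter, which summed to 3.45 to 3.80 FPKM in OE, 6.33 to 7.96 in vtc2, 5.90 to 7.33 in vtc4 and 4.21 to 6.79 in WT. The same held for the sum of the 148 rows as a share of each library's summed FPKM. Being a sum over chosen rows, it carries no test. The root marker sum given above, nearly all of it PYK10, was higher in OE than in WT without overlap. It was higher still in vtc2 and vtc4, and its part in the sum of the 148 rows was not tested. The number of ATMG rows above 0 was 30 to 35 in vtc2, 28 or 29 in vtc4, 22 to 26 in OE and 24 to 31 in WT, so OE and WT overlapped in that count. In whole rosettes, fewer cells of a type and less RNA per cell cannot be told apart.

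Differences between groups were tested with limma on log2(FPKM + 1) over all 17290 genes that passed the filter, with Benjamini-Hochberg adjustment and a threshold of 0.05. None of the 8 tested ATMG rows was called in any of the 4 comparisons, against 3.02% of all tested genes in vtc2 versus WT, 0.0347% in vtc4 versus WT, 0.0174% in OE versus WT and 5.14% in OE versus vtc2. At an unadjusted limma p under 0.05 the count was 0 in vtc2 versus WT, 0 in vtc4 versus WT, 1 in OE versus WT and 1 in OE versus vtc2. Over all 17290 tested genes the counts were 3411, 841, 1044 and 4021 in the same order. No other tool was run. Without vtc2 replicate 3 the count of called rows was again 0, beside 0.457% of all tested genes in vtc2 versus WT and 1.08% in OE versus vtc2. Of the 4 comparisons, 3 share the WT libraries and 2 share the vtc2 libraries, so they are not independent of each other.

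In vtc2 against WT the largest positive differences were those of the rows dominated by replicate 3. The log2 difference was 0.87 (SE 0.74) for ATMG01380, 0.70 (SE 0.45) for ATMG01390 and 0.41 (SE 0.44) for ATMG00020. With replicate 3 left out, these values were -0.17, 0.00149 and -0.28. On the lower side, ATMG00080 was at 0.922, 0.553 and 0.858 FPKM in vtc2 and 0.786, 1.296 and 1.43 in WT, a difference of -0.28 (SE 0.18). ATMG00640 was at 0.557, 0.401 and 1.36 FPKM in vtc2 and 0.813, 0.686 and 1.39 in WT (-0.17, SE 0.20). The groups overlapped in all 8 rows, whereas 10.4% of all tested genes were higher and 12.6% lower in vtc2 without overlap. The median difference of the 8 was 0.12, beside 0.00177 over all tested genes, and it turned to -0.15 without vtc2 replicate 3.

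In vtc4 against WT all 8 rows overlapped between the groups as well, with 5.14% of all tested genes higher and 5.23% lower without overlap. The most positive were ATMG01380 at 0.38 (SE 0.74), ATMG00640 at 0.10 (SE 0.20) and ATMG01390 at 0.02 (SE 0.45). The most negative were ATMG00070, at 0.683, 0.821 and 0.198 FPKM in vtc4 and 1.03, 0.795 and 0.706 in WT (-0.25, SE 0.22), ATMG00660 (-0.25, SE 0.18) and ATMG00080 (-0.23, SE 0.18). The limma adjusted p was 1.00 for each of the 8. The median difference was -0.11, beside -0.00933 over all tested genes, and it ran from -0.19 without vtc4 replicate 2 to -0.0234 without vtc4 replicate 3.

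In OE against WT the smallest p belonged to ATMG00080. It was at 0.326, 0.532 and 0.314 FPKM in OE, against 0.786, 1.296 and 1.43 in WT, and the groups did not overlap. The log2 difference was -0.63 (SE 0.18, 95% interval -1.02 to -0.25), with a limma p of 0.00385 that was 0.585 after adjustment. ATMG00070 did not overlap either, with 0.500, 0.490 and 0.385 FPKM in OE and 1.03, 0.795 and 0.706 in WT (-0.34, SE 0.22). Such a lower, non-overlapping pattern was thus seen in 2 of the 8 tested rows, beside 5.49% of all tested genes, and the opposite pattern in 0 of 8, beside 5.42%. ATMG00020 (-0.42, SE 0.44) overlapped between the groups. On the positive side, ATMG01380 was at 0.20 (SE 0.74) and ATMG00640 at 0.01 (SE 0.20), and every other tested row had a negative difference. The median was -0.27, beside -0.00898 over all tested genes.

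OE against vtc2 gave the most negative values, 7 of 8 rows lying below 0. In the limma fit ATMG01390 stood at -0.99 (SE 0.45, unadjusted p = 0.0462, adjusted p = 0.207). The next were ATMG00020 at -0.83 (SE 0.44) and ATMG01380 at -0.67 (SE 0.74). Without vtc2 replicate 3 these differences were -0.29, -0.14 and 0.37. ATMG01330, the open reading frame shown above, was at 0.734, 0.539 and 0.892 FPKM in OE and 1.05, 1.32 and 1.10 in vtc2, with no overlap (-0.33, SE 0.17, limma adjusted p = 0.267). ATMG00080 did not overlap either, although its closest values were 0.532 in OE and 0.553 in vtc2 (-0.35, SE 0.18). The 2 non-overlapping rows of 8 stood beside 13.0% of all tested genes that were lower in OE without overlap, and 14.3% were higher. ATMG00640 was the 1 row above 0, at 0.18 (SE 0.20). The median difference was -0.40, beside -0.00216 over all tested genes, and -0.24 without vtc2 replicate 3.

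**Figure D4:**
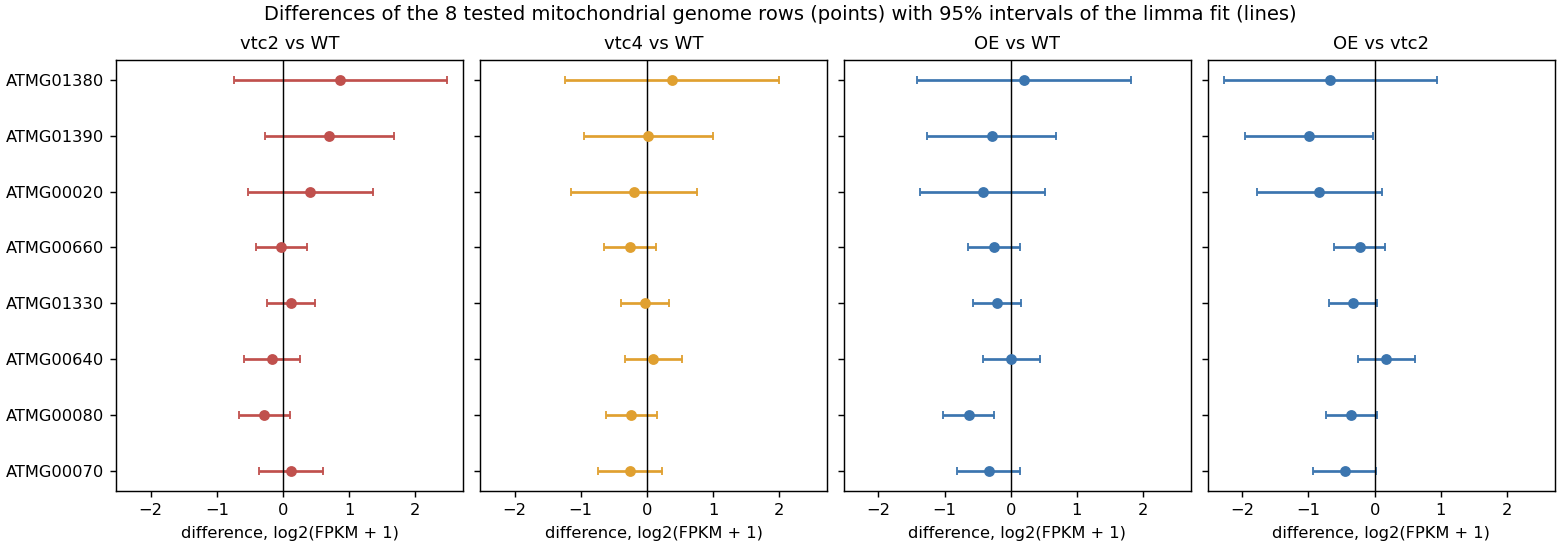
Log2 differences on the log2(FPKM + 1) scale (horizontal axis) of the 8 tested ATMG rows in the 4 comparisons, with 95% intervals of the limma fit. All intervals include 0 except ATMG00080 in OE versus WT and ATMG01390 in OE versus vtc2, and none of the 8 rows was called after adjustment.

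Across all 151 rows, without a filter, the group mean was lower in OE than in WT in 30 (19.9%) and higher in 10 (6.62%). It was equal in 111, nearly all of them at 0. Among all rows of the series 35.7% were lower and 34.0% higher. Against vtc2, the mean was lower in OE in 38 rows (25.2%) and higher in 7 (4.64%), beside 35.7% and 34.7% of all rows. For vtc2 against WT, 26 ATMG means (17.2%) were higher and 19 (12.6%) lower, beside 36.5% and 33.7% of all rows. For vtc4 against WT, 22 (14.6%) were higher and 20 (13.2%) lower, beside 34.2% and 35.6%. These counts treat rows that may share fragments or transcripts, and the same libraries, as if separate.

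Full separation of the libraries was less common than these directions. All OE libraries lay below all WT libraries in 5 of 151 rows (3.31%), beside 3.41% of the whole table. They were ATMG00070, ATMG00080, ATMG00590, ATMG01090 and ATMG01220. All OE libraries lay below all vtc2 libraries in 9 of 151 rows (5.96%), beside 7.60% of the table, and 0 ATMG rows were fully separated upward in either comparison, beside 3.73% of all rows in OE versus WT and 8.36% in OE versus vtc2. Rows at 0 in all 12 libraries cannot separate, and they made up 69.5% of ATMG rows but 27.7% of the table. Of the 46 detected ATMG rows, 5 (10.9%) were separated downward in OE versus WT and 9 (19.6%) in OE versus vtc2. The table had 1146 and 2556 such rows among 24296 detected, a smaller share in both comparisons. These shares carry no test. For ATMG01090 the values were 0.263, 0.258 and 0.0630 FPKM in OE, against 0.308, 0.334 and 0.581 in vtc2 and 0.405, 0.719 and 0.331 in WT. In vtc2 against WT, 2 rows were fully separated upward (ATMG00580 and ATMG01360) beside 6.61% of the table, and 0 downward beside 7.12%. In vtc4 against WT, ATMG00040 and ATMG01130 were separated upward beside 3.63%, and ATMG01220 downward beside 3.25%.

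ATMG01220, whose RefSeq partner is an unknown protein and whose match lies at ORF113, was the single ATMG row called by any fit. When the filter on low values was dropped, which brought 46 ATMG rows into the test, it was called in OE versus vtc2 at -0.45 (SE 0.097, limma adjusted p = 0.0397). In that comparison 2.70% of 24296 genes were called. No ATMG row was called in the same fit in vtc2 versus WT (1.47% of genes called), vtc4 versus WT (0.0247%) or OE versus WT (0.0123%). The row was listed at 0 in all 3 OE libraries, against 0.434, 0.463 and 0.226 FPKM in vtc2, and it was at 0.475, 0.448 and 0.229 in WT. In vtc4 it was at 0, 0 and 0.224. Over the 12 libraries it held 11 steps, and no library had more than 2.

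Over all 12 libraries, joint movement was strongest among the 3 highest rows. Over those 12 libraries, Pearson correlations of log2(FPKM + 1) were 0.982 between ATMG00020 and ATMG01390, 0.804 between ATMG01380 and ATMG01390 and 0.790 between ATMG00020 and ATMG01380. The median over the 28 pairs of the 8 tested rows was 0.297, with a range of -0.314 to 0.982, beside -0.00237 over all pairs of tested genes. Without vtc2 replicate 3 the correlation of ATMG00020 with ATMG01390 was 0.895, the highest of the 28, while those of ATMG01380 were 0.266 with ATMG01390 and 0.229 with ATMG00020. The median was then 0.260, with a range of -0.603 to 0.895 and 21 pairs above 0 in place of 24. The lowest pair was ATMG00070 with ATMG01380, at -0.603 in those 11 libraries and 0.309 over all 12. Next to the highest pair, ATMG00070 and ATMG00660 stood at 0.838 and ATMG01330 with ATMG01390 at 0.758. These values describe 8 rows that share libraries and depth, and are no test.

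By library, all 8 tested rows lay above their own 12-library mean in vtc2 replicate 3, with a median deviation of 0.50 on the log2 scale. In vtc4 replicate 2 this held for 7 rows (0.22) and in WT replicate 2 for 6 (0.14). The low end was held by OE replicate 3, where 0 of 8 rows lay above their mean (-0.16), by OE replicate 2 with 1 (-0.28) and by vtc4 replicate 3 with 1 (-0.33). In replicates 1 to 3 of vtc4 the count was 2, 7 and 1, and in those of OE it was 2, 1 and 0. The 12-library means include the high values of vtc2 replicate 3, and the counts were not repeated without that library.

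**Figure D5:**
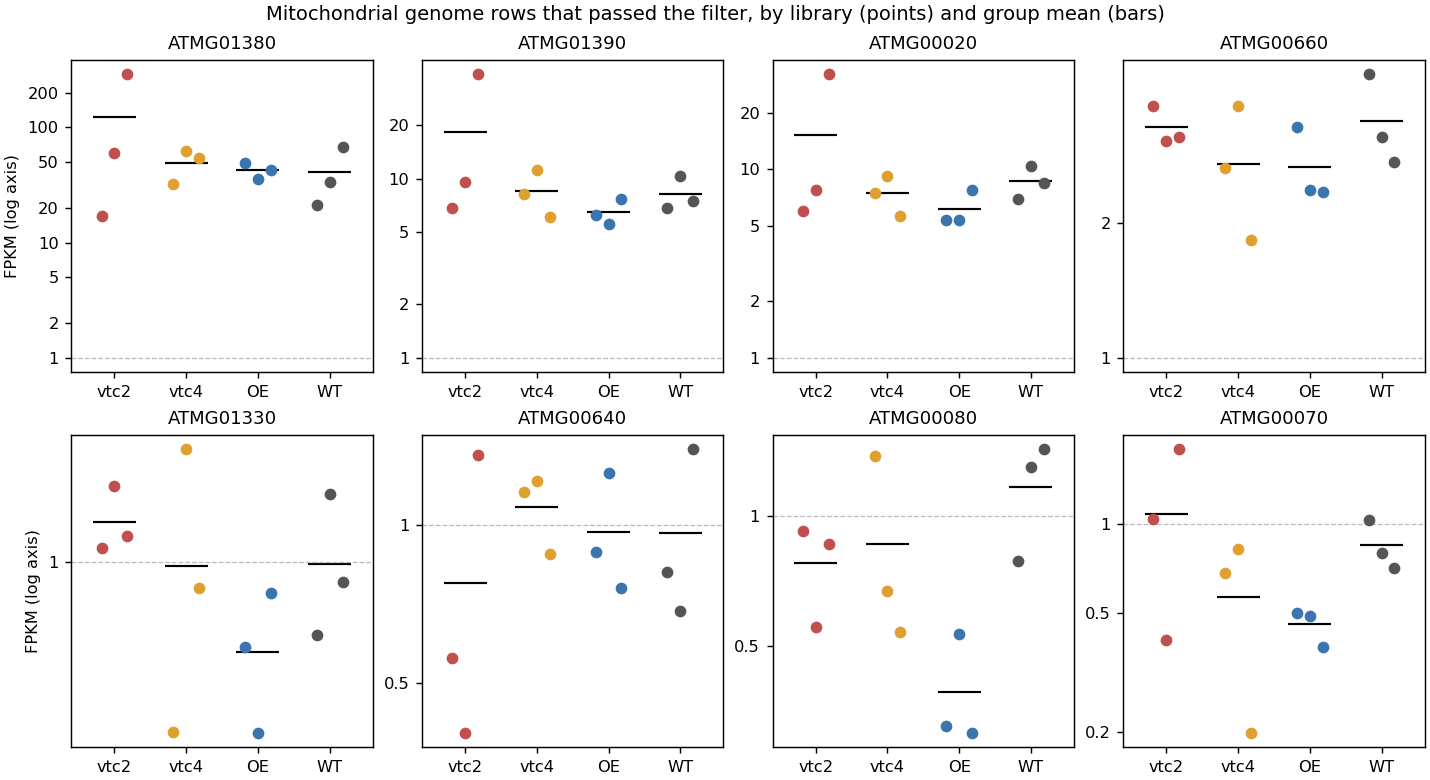
FPKM on log axes of the 8 tested ATMG rows in the vtc2, vtc4, OE and WT libraries (points; bars are group means, the dashed line is 1 FPKM). The third vtc2 library is the highest point for ATMG01380, ATMG01390, ATMG00020 and ATMG00070, and the OE points lie below the WT points for ATMG00080 and ATMG00070.

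Nuclear genes that work with the mitochondrial genome were examined beside it, in 8 lists with 86 genes of which 78 were tested. Of these 78, 1 was called in vtc2 versus WT, 0 in vtc4 versus WT, 0 in OE versus WT and 5 in OE versus vtc2 (6.41%, beside the 5.14% of all tested genes). None of the 17 tested nuclear subunits of complex I, 3 of complex II, 9 of complex IV or 9 of ATP synthase was called in any comparison. Median differences of these 4 lists stayed between -0.0794 and 0.0583. Of the 11 genes of complex III and cytochrome c, AT1G51980 was lower in OE than in vtc2, with 41.2, 48.0 and 49.1 FPKM in OE and 53.5, 55.4 and 57.0 in vtc2 (-0.26, SE 0.067, limma adjusted p = 0.0456). That list's median was -0.0162.

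Of 7 tested genes for bypass enzymes of the respiratory chain, 1 was called in vtc2 versus WT, beside 3.02% of all tested genes, and 1 in OE versus vtc2, beside 5.14%. NDA1, an internal alternative NAD(P)H dehydrogenase, fell in vtc2 to 77.6, 75.7 and 70.0 FPKM, against 100.5, 89.0 and 99.7 in WT (-0.37, SE 0.061, limma adjusted p = 0.0131). NDB2, an external enzyme of the same family, was lower in OE, with 5.91, 9.98 and 7.36 FPKM in OE and 9.38, 15.1 and 17.4 in vtc2 (-0.76, SE 0.20, limma adjusted p = 0.0477). OE and vtc2 overlapped in NDB2. AOX1A, the alternative oxidase often induced by respiratory stress, averaged 14.4 ± 4.02 FPKM in vtc2, 13.9 ± 3.19 in vtc4, 15.3 ± 3.98 in OE and 13.7 ± 1.74 in WT (SD, n = 3 each) and was not called in any comparison.

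Of 21 tested genes for mitochondrial RNA and DNA, 2 were called in OE versus vtc2, beside 5.14% of all tested genes, and 0 in the other comparisons. Both were higher in OE. MORF3, an RNA editing factor, was at 17.2, 18.6 and 15.9 FPKM in OE, against 13.0, 12.2 and 12.1 in vtc2 (0.44, SE 0.077, limma adjusted p = 0.0124). ATWHY2, a single-stranded DNA binding protein of mitochondria, was at 14.1, 12.8 and 13.4 FPKM in OE, against 10.3, 10.5 and 11.3 in vtc2 (0.30, SE 0.065, limma adjusted p = 0.0249). The mitochondrial RNA polymerase gene AT1G68990 averaged 2.96 ± 0.252 FPKM in vtc2, 3.06 ± 0.203 in vtc4, 3.21 ± 0.307 in OE and 3.18 ± 0.433 in WT (SD, n = 3 each). It was not called in any comparison. AT5G15700, another organelle RNA polymerase gene, did not pass the filter and was not tested. It averaged 0.815 ± 0.0765 FPKM in vtc2, 0.890 ± 0.0340 in vtc4, 0.915 ± 0.244 in OE and 0.889 ± 0.111 in WT (SD, n = 3 each).

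GLDH, which encodes the ascorbate-forming enzyme of the inner mitochondrial membrane, was at 7.06, 7.01 and 7.02 FPKM in vtc2, 7.45, 7.79 and 7.94 in vtc4, 7.91, 9.14 and 9.24 in OE, and 8.35, 7.59 and 8.01 in WT. It was higher in OE than in vtc2 by 0.28 (SE 0.070, limma adjusted p = 0.0417), and it was not called against WT in vtc2 (-0.16, SE 0.070, limma adjusted p = 0.230), vtc4 or OE. All 5 calls in OE versus vtc2 were lost under at least 1 other processing. Fitting only the compared groups gave limma adjusted p-values of 0.118 for GLDH, 0.143 for NDB2, 0.0539 for MORF3, 0.0858 for ATWHY2 and 0.126 for AT1G51980. NDA1 in vtc2 stood at 0.0813 in that fit. Over all tested genes, calls in that fit fell from 888 to 93 in OE versus vtc2 and from 523 to 13 in vtc2 versus WT.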

How the data were processed

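RNA from pools of rosettes was sequenced with the TruSeq stranded mRNA kit as paired reads of 75 bases. Per the submitters' processing notes, Trimmomatic 0.36, HISAT2 2.1.0, Cufflinks 2.2.1 and Cuffdiff were used with build TAIR10. The annotation, strand setting and counting of multi-mapped reads were not stated in those notes or in the labels. The authors deposited 1 table of FPKM values, so counts and total depth are unknown, and precision at low levels was judged from the steps between values. The labels name each library a separate pool, and p-values measure the spread between these pools.

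From the table, log2(FPKM + 1) was fitted with limma 3.58.1 (R 4.3.3), 1 model for 12 libraries with a trended prior, on 17290 genes with an FPKM of 1 or more in 3 or more libraries. Tests were two-sided, with Benjamini-Hochberg adjustment over all these genes and a threshold of 0.05. A fold change on this scale understates changes of low genes. The fit was also run on simulated data, with changes planted only in genes above a set mean level. That run gives no measure of power for the lower ATMG rows. Alternatives were a pseudocount of 0.1, no filter, TPM, median-ratio and nuclear-sum scaling, only the compared groups, a replicate block, and each library left out in turn. The fit without vtc2 replicate 3 for joint movement and the sum without the 3 highest rows were added after seeing the data. Named rows were those called, the 15 of highest mean, the largest differences per comparison and rows of the role lists. Rows just inside and outside the filter, those with separated groups, and low rows with a RefSeq role were added after their values were seen. Members and lists were chosen with earlier results of these data known. Nuclear copies were sought by exact match of 75-base windows within RefSeq's TAIR10.1, and sequences are from RefSeq. RefSeq notes named 53 of the 151 ATMG IDs, and none of its coordinates were joined to the deposited table. Python 3.11.15 was used for these steps.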

Additional observations from a re-analysis of the deposited data

Results flagged for a closer look

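For ATMG01330 the libraries of OE and vtc2 lay on opposite sides of the WT mean. All 3 OE libraries, at 0.734, 0.539 and 0.892 FPKM, lay below the WT mean of 0.993, and all 3 vtc2 libraries, at 1.05, 1.32 and 1.10, lay above it. The WT libraries, at 0.769, 1.277 and 0.932, overlapped both groups, and limma called neither OE (-0.21, SE 0.17, adjusted p = 0.936) nor vtc2 (0.12, SE 0.17, adjusted p = 0.743) against WT. The effect of OE minus the effect of vtc2, each against the WT mean, was -0.433 FPKM. Since both share the WT libraries, the difference is that of OE against vtc2, for which limma gave a log2 difference of -0.33 (SE 0.17, adjusted p = 0.267) that was not called. No other tested ATMG row had all libraries of 2 groups on opposite sides of the WT mean.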

How the results depend on the processing

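In 32 results (8 tested rows in 4 comparisons) and 19 alternatives, 0 of 608 values passed the threshold and 19 changed sign, 17 of them when a library was left out. With no filter, 1 row (ATMG01220) was called in OE versus vtc2, and the median difference was -0.0883 there and -0.0272 in OE versus WT, 0.0457 in vtc2 versus WT and 0.000437 in vtc4 versus WT, now over 46 rows. With a pseudocount of 0.1 the median in OE versus vtc2 was -0.753. ATMG00660 in vtc2 versus WT was 0.0464 as TPM and 0.0426 with nuclear-sum scaling. With libraries left out in turn, the median of the tested rows ran from -0.146 (without vtc2 replicate 3) to 0.218 in vtc2 versus WT, from -0.192 to -0.0234 in vtc4 versus WT, from -0.349 to -0.198 in OE versus WT and from -0.576 to -0.235 in OE versus vtc2. In vtc2 versus WT, ATMG01380 ran from -0.173 to 1.83, ATMG00020 from -0.279 to 0.839, ATMG00660 from -0.131 to 0.120 and ATMG00070 from -0.120 to 0.370. In vtc4 versus WT, ATMG01390 ran from -0.176 to 0.217, ATMG01330 from -0.208 to 0.142 and ATMG00640 from -0.00381 to 0.249. In OE versus WT, ATMG01380 ran from -0.172 to 0.633 and ATMG00640 from -0.0916 to 0.162. In OE versus vtc2, ATMG01380 ran from -1.63 to 0.374. The cause was not tested. Same-numbered libraries of different groups deviated together with correlations of -0.169 to 0.204 (median 0.0218). For libraries of different numbers the range was -0.352 to 0.324 (median -0.0337). The numbers were not taken as pairs, although 3 libraries a group cannot exclude a pairing. With the replicate block 0 ATMG rows were called. The medians were 0.118, -0.111, -0.271 and -0.403, as without it, because a block in this balanced design cannot change the differences. The GLDH call in OE versus vtc2 had a limma adjusted p of 0.0563 with the block. Low rows, with 2 to 70 steps over all libraries, limit what these data can show.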
